A study of Mus musculus with 79 samples.

Results

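Mlip and the genes that build the nuclear lamina and its bridges to the cytoskeleton were followed in nuclei of the mouse visual cortex in which neurons had been silenced with a potassium channel. The set has 8 members of the 55335 genes in the deposited count table: Mlip, the lamin genes Lmna, Lmnb1 and Lmnb2, the KASH genes Syne1 and Syne2, and the SUN genes Sun1 and Sun2. They were taken by symbol. Mlip was included because it was low in nuclei transduced with Kir2.1, and Syne2 because it was high in transduced nuclei. For those contrasts the values of these genes are given as a description, with no p. The other 6 members were included for their role in the nuclear envelope.

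The lamina is a protein mesh under the inner nuclear membrane. Lmna encodes lamins A and C, and Lmnb1 and Lmnb2 encode the B-type lamins. SUN proteins span the inner membrane and bind, in the space between the membranes, the KASH tail of nesprins in the outer membrane; the resulting LINC complex couples the nucleus to actin, microtubules and motors. Syne1 and Syne2 encode the giant nesprins 1 and 2, whose shorter products are also made from the same genes. Mlip encodes a protein named for its binding to lamin A and is best known from heart and skeletal muscle.

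Both tags used to sort the nuclei sit in this membrane system. Mice carried VIP Cre (wt/ki), which acts in cortical interneurons that make vasoactive intestinal peptide, together with INTACT (wt/ki), an allele that tags nuclei after Cre recombination. The widely used mouse INTACT allele encodes SUN1 fused to a green fluorescent protein, although the labels do not name the tag. The injected adeno-associated virus (AAV) was AAV-Syn1-Kir2.1-2a-mScarlet-KASH or the same vector with Kir2.1(Mutant), in which a neuronal Syn1 promoter drives the channel and a red protein held at the nuclear envelope by a KASH sequence. Kir2.1, the product of Kcnj2, is an inwardly rectifying potassium channel that lowers excitability, and the series' stated purpose was to ask what residual activity does in the visual cortex of dark-housed mice. Injection was at postnatal day 55 to 60 and darkness began 3 days later; every label gives 10 days in the dark.

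The 79 libraries, each of 50 to 100 sorted nuclei, formed 10 groups. Transduced VIP nuclei came with Kir2.1 (n = 10) or the mutant (n = 9), and transduced neurons with Kir2.1 (n = 8) or the mutant (n = 8). Non-transduced VIP nuclei came with Kir2.1 (n = 10), the mutant (n = 9) or no AAV (n = 3). All nuclei, labelled non-transduced where a vector had been injected, also came with Kir2.1 (n = 10), the mutant (n = 9) or no AAV (n = 3). The libraries without AAV were all from males, and the other groups held both sexes. Libraries held 3219899 to 9267246 counts (median 6170915). Summed VIP neuron markers were 5660 to 21300 CPM, counts scaled to a common library size, in the VIP groups, against 73.6 to 1310 CPM in the neuron and all-nuclei groups. Kcnj2, the gene the vectors carry, ran from 138 to 1220 CPM in transduced libraries, against 0 to 149 CPM in the others. Each library was correlated with the gene-by-gene median of its group. A total of 3 libraries lay more than 3 median absolute deviations below the median correlation of their group. These were Kir2.1 transduced VIP 1 (r = 0.914), mutant transduced VIP 1 (0.925) and Kir2.1 non-transduced VIP 9 (0.896). Without them no call on a member changed.

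The sequences below are shown because a KASH tail is what the vectors and the nesprin genes have in common. They are the last 180 coding bases before the stop codon, from the Syne2 and Syne1 transcripts with the longest coding sequence in GENCODE vM21 (GRCm38), and each lies within 1 exon. The Syne2 stretch lies at chr12:76109862-76110041 on the plus strand and the Syne1 stretch at chr10:5022010-5022189 on the minus strand. Capitals mark the bases that the 2 genes share when the stretches are aligned from the end.
Syne2: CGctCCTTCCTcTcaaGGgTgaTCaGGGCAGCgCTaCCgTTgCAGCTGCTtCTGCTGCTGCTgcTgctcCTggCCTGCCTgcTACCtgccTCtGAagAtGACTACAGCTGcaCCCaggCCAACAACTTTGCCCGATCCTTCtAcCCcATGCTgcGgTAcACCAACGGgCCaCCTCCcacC
Syne1: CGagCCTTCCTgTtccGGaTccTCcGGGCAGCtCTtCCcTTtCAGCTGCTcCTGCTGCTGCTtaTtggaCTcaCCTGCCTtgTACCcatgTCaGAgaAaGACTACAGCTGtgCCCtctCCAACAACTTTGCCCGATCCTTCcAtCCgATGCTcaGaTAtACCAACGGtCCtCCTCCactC
The 2 stretches shared 130 of 180 bases (72.2%), and the longest run without a difference was 23 bases. The KASH sequence of the vectors themselves was not analysed here.

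Mlip (ENSMUSG00000032355, GRCm38, chr9:77102081-77352969, minus strand) was lower with Kir2.1 than with the mutant in transduced nuclei, the difference for which it was included. In transduced VIP nuclei it ran from 12.5 to 80.3 CPM with Kir2.1 (median 35.1, 10 libraries), against 111 to 195 CPM with the mutant (median 162, 9 libraries). The groups did not overlap. The means were 37.5 ± 19.2 CPM with Kir2.1 and 164 ± 26 CPM with the mutant (SD), a log2 fold change of -2.11 ± 0.21 (SE), or 4.32-fold lower with Kir2.1. Across all genes tested in this comparison, 1.39% were called at an adjusted p under 0.05 in edgeR's quasi-likelihood test. Mlip entered the set because of this contrast, so nothing is read from its place in it.

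Transduced nuclei labelled as neurons showed the same direction at higher levels. Mlip ran from 57.2 to 104 CPM with Kir2.1 (median 82.9, 8 libraries), against 194 to 341 CPM with the mutant (median 256, 8 libraries), and again every Kir2.1 library lay below every mutant library. The means were 80.3 ± 15.7 CPM with Kir2.1 and 259 ± 57.2 CPM with the mutant (log2 fold change -1.64 ± 0.16, 3.12-fold lower), in a comparison in which 5.63% of genes were called. With any 1 library left out the fold ran from 4.02 to 4.94 in VIP nuclei and from 3.00 to 3.24 in neurons. Among transduced VIP nuclei, Mlip averaged 43.4 ± 19.7 CPM with Kir2.1 (n = 6) and 143 ± 22.4 CPM with the mutant (n = 4) in females. In males the means were 28.7 ± 17.0 CPM with Kir2.1 (n = 4) and 181 ± 13.4 CPM with the mutant (n = 5). Mlip was lower with Kir2.1 in both sexes, 3.28-fold in females and 6.31-fold in males, and whether the sexes differ was not tested. The values by sex and with libraries left out use the libraries on which Mlip was chosen. They describe the difference and add no separate evidence for it. The sexes are as labelled, and 3 of the 22 sets of libraries with 1 vector and replicate number carried both sex labels, all 3 of them with Kir2.1. The difference of the vector effect between VIP nuclei and neurons was -0.44 ± 0.30 on the log2 scale (SE), given without a test because Mlip was chosen on these libraries.

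**Figure D1:**
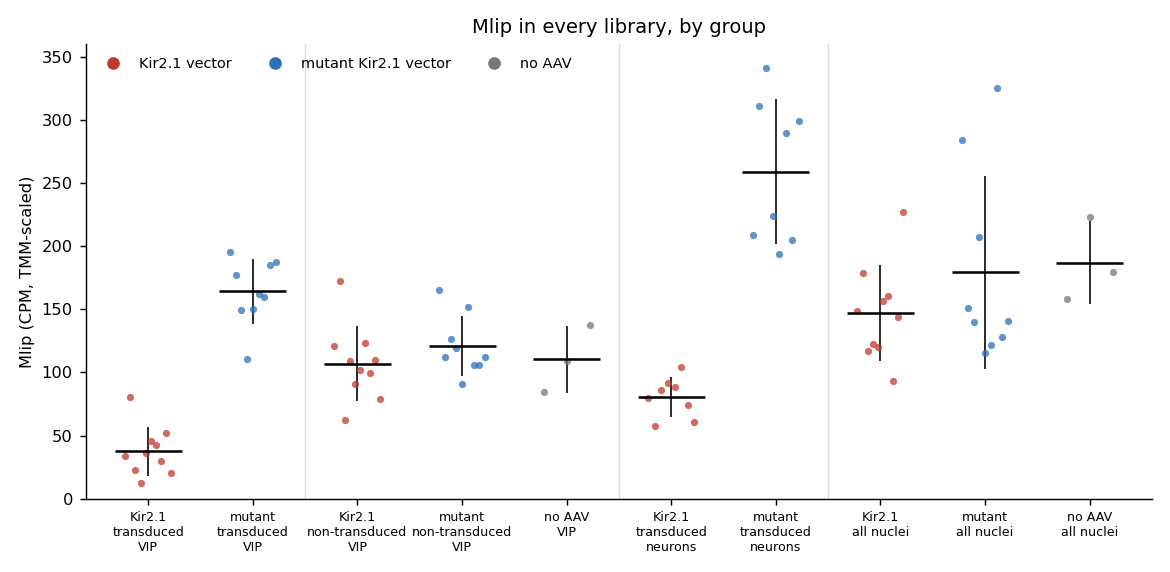
Mlip in CPM (y axis, linear) in each of the 79 libraries (points) of the 10 groups (x axis), with the mean (horizontal line) and SD (vertical line) of each group. Kir2.1 transduced VIP nuclei (12.5 to 80.3) lie wholly below mutant transduced VIP nuclei (111 to 195), and Kir2.1 transduced neurons (57.2 to 104) wholly below mutant transduced neurons (194 to 341), while the Kir2.1 and mutant groups of non-transduced nuclei overlap.

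Mlip in non-transduced nuclei was not used to choose it, and there the vectors could be tested. In non-transduced VIP nuclei Mlip ran from 62.0 to 172 CPM in Kir2.1-injected mice (median 105) and from 90.6 to 165 CPM in mutant-injected mice (median 112). These groups overlapped almost entirely, with a log2 fold change of -0.19 ± 0.20 (adjusted p = 0.876, edgeR; 95% interval -0.60 to 0.23). In all nuclei Mlip ran from 92.9 to 227 CPM with Kir2.1 (median 146) and from 115 to 325 CPM with the mutant (median 141), with a log2 fold change of -0.27 ± 0.19 (adjusted p = 0.906, interval -0.67 to 0.13). No gene was called in either comparison (0% of 21207 and 0% of 21362 genes), although 1843 and 1289 genes had an unadjusted p under 0.05, and DESeq2 called 15 and 5. Injection itself, with both vectors averaged, left Mlip at 0.05 ± 0.28 on the log2 scale relative to no AAV in VIP nuclei (adjusted p = 0.98) and at -0.21 ± 0.25 in all nuclei (adjusted p = 0.836).

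Within Kir2.1-injected mice, transduced VIP nuclei (12.5 to 80.3 CPM) held 2.81-fold less Mlip than non-transduced VIP nuclei (62.0 to 172 CPM), and the ranges overlapped between 62.0 and 80.3 CPM. Within mutant-injected mice the direction was the other way, at 111 to 195 CPM in transduced and 90.6 to 165 CPM in non-transduced VIP nuclei (1.35-fold higher, ranges overlapping). Mutant transduced neurons likewise stood 1.43-fold above all nuclei of the same mice, while Kir2.1 transduced neurons stood 1.83-fold below theirs. These contrasts share libraries with those that chose Mlip and carry no test. Ordered by mean, the 10 groups ran from mutant transduced neurons (259 CPM) through the 3 all-nuclei groups and mutant transduced VIP nuclei (147 to 187 CPM) and the 3 non-transduced VIP groups (107 to 121 CPM) to Kir2.1 transduced neurons (80.3 CPM) and Kir2.1 transduced VIP nuclei (37.5 CPM). Only the first and the last step in that order exceeded the SD of both neighbours.

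VIP nuclei held less Mlip than all nuclei where neither was transduced, with 22 libraries on each side. The log2 fold change was -0.55 ± 0.12 (1.46-fold lower, adjusted p = 2.16e-04, edgeR), in a comparison in which 32.6% of genes were called. In the mice without AAV the 3 VIP libraries held 84.2, 109 and 137 CPM of Mlip, against 158, 179 and 223 CPM in the 3 libraries of all nuclei. These few libraries did not overlap, and the share of all genes that separate so was not counted. The ranges overlapped with Kir2.1 (62 to 172 against 92.9 to 227 CPM) and with the mutant (90.6 to 165 against 115 to 325 CPM).

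Cell type markers moved beside Mlip, and their part in its values was not tested. The sum of 6 VIP neuron markers was 5660 to 11900 CPM in Kir2.1 and 17300 to 19600 CPM in mutant transduced VIP nuclei, where Vip (2.97-fold lower, adjusted p = 4.6e-04) and Adarb2 (1.95-fold lower, adjusted p = 1.46e-04) passed the test and the other 4 did not. Of these 4, Gad1 (log2 fold change -0.59, adjusted p = 0.0556) and Gad2 (-0.48, adjusted p = 0.057) were negative, while Calb2 (0.56, adjusted p = 0.275) and Prox1 (0.31, adjusted p = 0.361) were positive. The sum of 5 excitatory neuron markers was 33.5 to 196 CPM with Kir2.1 and 18.7 to 61.1 CPM with the mutant, and 0 of the 5 passed. In transduced neurons the VIP marker sum was 73.6 to 163 CPM with Kir2.1 and 138 to 640 CPM with the mutant, and the excitatory sum was 599 to 1010 CPM with Kir2.1 and 691 to 1250 CPM with the mutant. There 2 of the 4 testable VIP markers passed, Adarb2 (4.38-fold lower with Kir2.1, adjusted p = 4.81e-04) and Gad1 (1.94-fold lower, adjusted p = 0.0052), as did 1 of 3 astrocyte markers, Aldh1l1 (3.36-fold lower, adjusted p = 0.0252), and 0 of the 5 excitatory markers. The sum of the astrocyte markers was 27.4 to 83.3 CPM with Kir2.1 and 22.6 to 66.4 CPM with the mutant in these neurons. Among them Slc1a3 went the other way from Aldh1l1, with means of 27.1 CPM with Kir2.1 and 13.2 CPM with the mutant. In pools of nuclei, fewer nuclei of a type and less RNA per nucleus cannot be told apart. Muscle markers, listed because Mlip and Lmna are best known from muscle, summed to 12.4 to 39.9 CPM in Kir2.1 and 22.5 to 54.0 CPM in mutant transduced VIP nuclei. Myh6, the heart myosin, was at 0 in every VIP library and every library of transduced neurons, but above 0 in every library of all nuclei (1.36 to 25.3 CPM). Of the 5 muscle markers, 1 was higher in non-transduced VIP nuclei than in all nuclei, 2 were lower and 2 did not pass.

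The genes whose levels followed Mlip most closely over the 79 libraries, among 11120 genes with a mean of at least 10 CPM, were Gm3294 (Pearson r of log2(CPM + 1) 0.791), Lin7a (0.787), Kctd16 (0.778), Flrt2 (0.769) and Cdh8 (0.765). These coefficients describe libraries that share groups, vector and sort, so each holds the group differences themselves. Lin7a encodes a synaptic scaffold protein, Kctd16 a subunit associated with GABA-B receptors, Flrt2 a cell surface guidance protein and Cdh8 a cadherin.

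The annotated start of Mlip is shown because Mlip entered the set for its difference between the vectors. The window below (RefSeq, GRCm38.p6, chr9:77347807-77348106, minus strand) holds 250 bases before and 50 bases after the start, and a further Mlip window in that table overlaps it. Capitals mark the matches to the motifs searched.
Mlip: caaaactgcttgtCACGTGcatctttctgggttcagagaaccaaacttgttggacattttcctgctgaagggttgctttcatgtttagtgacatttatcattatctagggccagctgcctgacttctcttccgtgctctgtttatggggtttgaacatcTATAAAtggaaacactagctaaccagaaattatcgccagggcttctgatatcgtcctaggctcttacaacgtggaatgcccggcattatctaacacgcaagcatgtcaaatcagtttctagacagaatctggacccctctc
Both strands were searched for 7 motifs in 32851 windows of the same length. The E-box CACGTG was found in the Mlip window and in 7.15% of all windows, and TATAAA was found there and in 13.6% of all windows. Neither the CRE core TGACG (20.8% of windows), the AP-1 motif TGANTCA (7.81%), the NR4A motif AAGGTCA (4.72%), the MEF2 motif (3.19%) nor the CArG box bound by SRF (1.63%) was found in these letters. The GENCODE gene reaches further upstream, and other starts were not searched.

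Syne2 (ENSMUSG00000063450, GRCm38, chr12:75818134-76110926, plus strand), which encodes nesprin-2, was high in every transduced group. With Kir2.1 it ran from 65.3 to 131 CPM in transduced VIP nuclei (median 89.8), against 2.17 to 21.9 CPM in non-transduced VIP nuclei (median 7.93). With the mutant it ran from 96.1 to 260 CPM in transduced VIP nuclei (median 121), against 3.82 to 25.8 CPM in non-transduced VIP nuclei (median 14.4). Transduced and non-transduced libraries did not overlap with either vector. The log2 fold changes were 3.36 ± 0.37 with Kir2.1 (10.2-fold) and 3.34 ± 0.39 with the mutant (10.1-fold), given without a test because Syne2 was chosen on them. In these comparisons 0.769% and 0.00943% of genes were called. Transduced neurons also stood apart from all nuclei, at 45.7 to 148 CPM against 7.11 to 31.3 CPM with Kir2.1 (4.53-fold higher) and at 52.7 to 120 CPM against 9.98 to 42.1 CPM with the mutant (3.28-fold higher), in comparisons in which 8.76% and 5.41% of genes were called.

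The height of Syne2 did not depend detectably on which vector was carried. In transduced VIP nuclei it averaged 94.8 ± 21.5 CPM with Kir2.1 and 134 ± 52.0 CPM with the mutant, with a log2 fold change of -0.48 ± 0.35 (adjusted p = 0.71, 95% interval -1.18 to 0.22). In transduced neurons it averaged 90.3 ± 38.6 CPM with Kir2.1 and 81.4 ± 19.9 CPM with the mutant, with a log2 fold change of 0.21 ± 0.22 (adjusted p = 0.70, interval -0.27 to 0.69). The 2 rises with transduction differed by 0.01 ± 0.47 on the log2 scale (SE), given without a test because Syne2 was chosen on those rises. In nuclei without a vector's tag Syne2 was low: 0.843, 3.84 and 29.9 CPM in the 3 VIP libraries without AAV, and 11.6, 12.1 and 16.7 CPM in the 3 libraries of all nuclei without AAV. Among non-transduced groups it was lower in VIP nuclei than in all nuclei (log2 fold change -0.90 ± 0.27, adjusted p = 0.0068, edgeR, with 32.6% of genes called), a comparison not used to choose it. Ordered by mean, the only step that exceeded the SD of both neighbours was the one between the transduced groups (81.4 to 134 CPM) and the others (9.26 to 24.7 CPM).

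**Figure D2:**
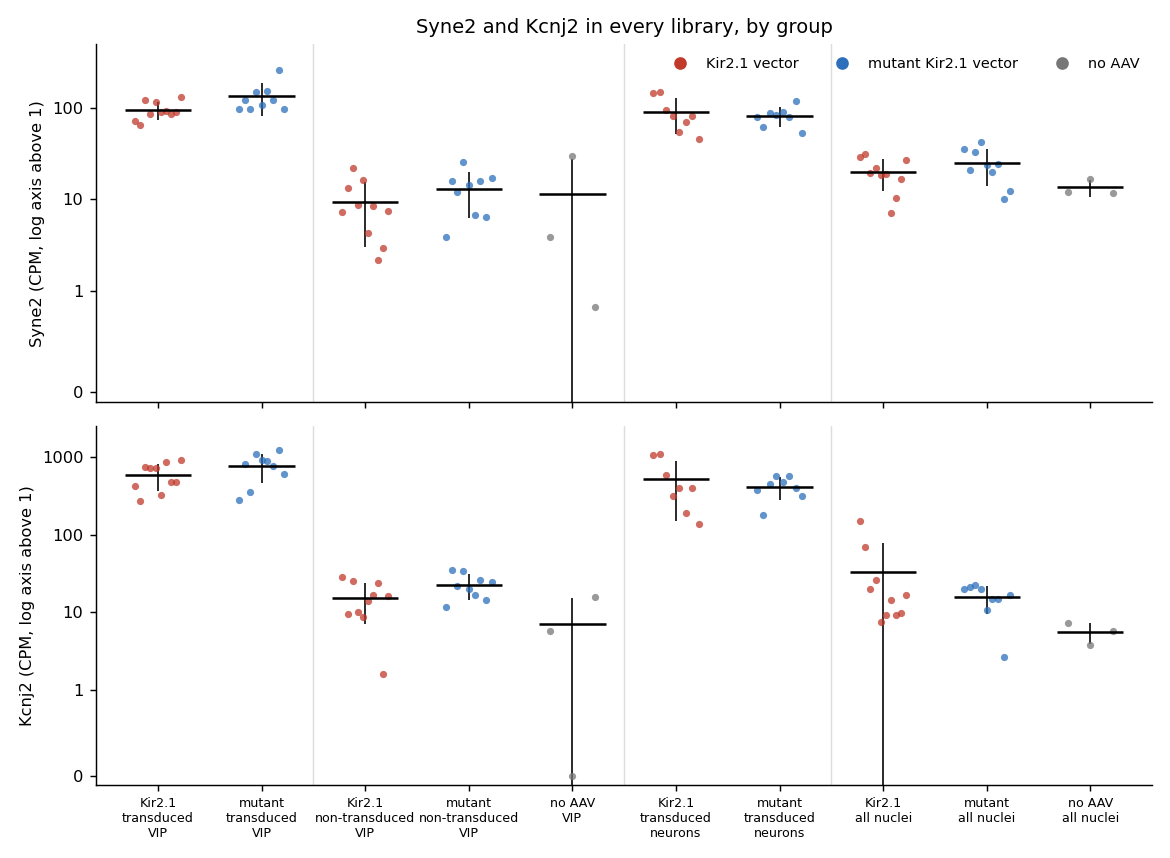
Syne2 (upper panel) and Kcnj2 (lower panel) in CPM in each library, on axes that are linear below 1 and logarithmic above, with the mean and SD of each of the 10 groups. Syne2 lies at 45.7 to 260 CPM in the 4 transduced groups and at 0.843 to 42.1 CPM in the other 6, and Kcnj2 lies at 138 to 1220 CPM in the transduced groups and at 0 to 149 CPM in the others.

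Syne2 followed Kcnj2 from library to library inside the transduced groups, which the choice of Syne2 did not use. Over the 10 Kir2.1 transduced VIP libraries the Pearson r of the log2(CPM + 1) values was 0.768 (permutation p = 0.00924) and Spearman's rho was 0.83 (permutation p = 0.00516). Over the 9 mutant transduced VIP libraries r was 0.723 (exact permutation p = 0.00102) and rho 0.85 (exact permutation p = 0.00607). Over the 8 libraries of Kir2.1 transduced neurons r was 0.897 (exact permutation p = 0.00526) and rho 0.881 (exact permutation p = 0.00724). Over the 8 libraries of mutant transduced neurons r was 0.52 (exact permutation p = 0.201) and rho 0.524 (exact permutation p = 0.197), which did not pass. Adjusted over the 8 relations computed, Syne2 and Mlip in 4 groups each, the Pearson permutation p-values were 0.0246, 0.00816, 0.021 and 0.322. Without the 2 libraries farthest from the median of Kcnj2, r was 0.743, 0.818, 0.766 and 0.472. All tests were two-sided. Whether reads of the vectors' own KASH sequence entered the Syne2 count was not tested.

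**Figure D3:**
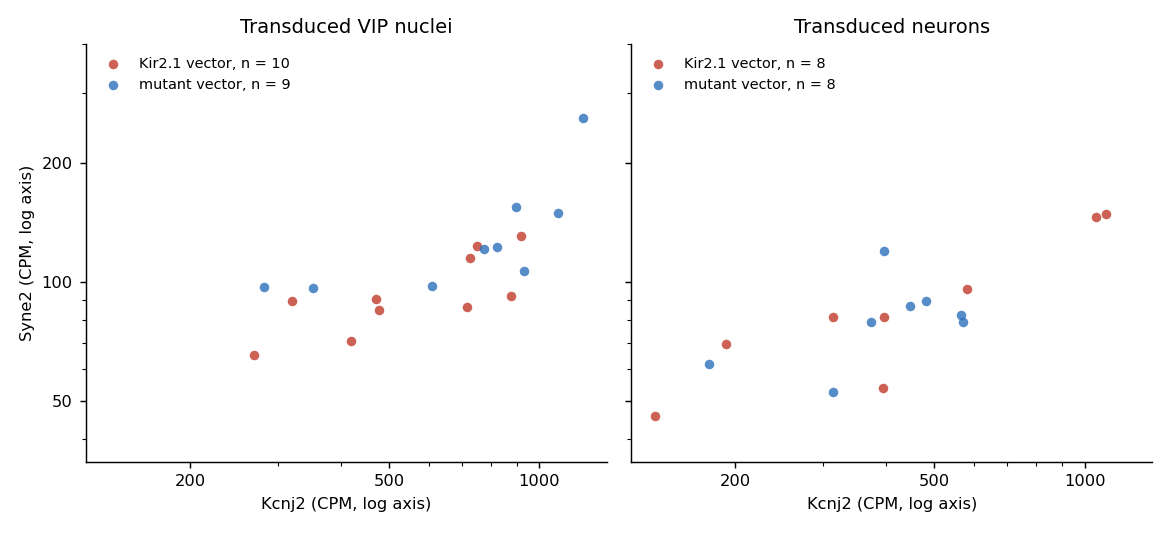
Syne2 against Kcnj2, both in CPM on log axes, in each transduced library of VIP nuclei (left panel) and neurons (right panel), coloured by vector. Libraries with more Kcnj2 held more Syne2, with Pearson r of 0.768 (Kir2.1, VIP), 0.723 (mutant, VIP), 0.897 (Kir2.1, neurons) and 0.52 (mutant, neurons, which did not pass) on the log2(CPM + 1) scale.

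Mlip had no relation with Kcnj2 that passed. Its r was -0.669 over Kir2.1 transduced VIP libraries (permutation p = 0.0298, adjusted 0.0596; -0.38 without the 2 farthest libraries). In the other 3 transduced groups r lay between -0.346 and -0.236, and all 4 signs were negative. Over the 79 libraries Kcnj2 was the gene most like Syne2 (r = 0.863), a value that holds the difference between transduced and non-transduced libraries on which Syne2 was chosen. It was the only one of the nearest 5 that stayed positive over the 35 transduced libraries (0.813). The others were Gm3948 (0.505), Cdh6 (0.469), BC030499 (0.429) and Vmn2r85 (0.422). Among all nuclei of Kir2.1-injected mice, libraries 1 and 2 held 149 and 68.5 CPM of Kcnj2, against 7.57 to 26.3 CPM in the other 8. The same 2 libraries held 28.8 and 31.3 CPM of Syne2, the highest of that group, against 7.11 to 27.1 CPM.

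Syne1 (ENSMUSG00000096054, GRCm38, chr10:5020917-5551482, minus strand), which encodes nesprin-1, was lower with Kir2.1 than with the mutant in transduced neurons. It ran from 347 to 513 CPM with Kir2.1 (median 484), against 651 to 918 CPM with the mutant (median 814), and the groups did not overlap. The means were 458 ± 60.1 CPM with Kir2.1 and 802 ± 94.7 CPM with the mutant (SD, n = 8 each). The log2 fold change was -0.75 ± 0.12, or 1.69-fold lower (adjusted p = 2.27e-04, edgeR). Syne1 was the 1 called of the 7 members testable here, in a comparison in which 5.63% of all genes were called. Leaving out any 1 library gave log2 fold changes of -0.79 to -0.71 with adjusted p of 1.79e-04 to 8.08e-04. In females alone the change was -0.75 (5 Kir2.1 and 4 mutant libraries, adjusted p = 0.0276), and in males alone it was -0.77 but not called (3 and 4 libraries, adjusted p = 0.14); this split was added after the data were seen. Kir2.1 transduced neurons 3 (male) and 4 (female) are labelled with the other sex than the Kir2.1 libraries of the same number. Adarb2, Gad1 and Aldh1l1, given beside Mlip, were also lower with Kir2.1 here, and their part in the Syne1 value was not tested. The astrocyte marker Slc1a3 went the other way from Aldh1l1, with means of 27.1 CPM with Kir2.1 and 13.2 CPM with the mutant. Gm10097 lies within Syne1 on the opposite strand, with 1863 counts against 283239 for Syne1 over all libraries, and its part was not tested.

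In transduced VIP nuclei no change of Syne1 was detected. It ran there from 377 to 734 CPM with Kir2.1 (median 490), against 375 to 839 CPM with the mutant (median 614), with overlapping groups and a log2 fold change of -0.22 ± 0.14 (adjusted p = 0.634, 95% interval -0.51 to 0.06). The vector effect was 0.57 ± 0.20 less negative in VIP nuclei than in neurons (adjusted p = 0.324), so the populations were not shown to differ. Relative to all nuclei of mutant-injected mice, mutant transduced neurons held 1.4-fold more Syne1 (log2 fold change 0.49 ± 0.11, adjusted p = 0.00147, edgeR, with 5.41% of genes called). Kir2.1 transduced neurons did not differ detectably from all nuclei of Kir2.1-injected mice (-0.19 ± 0.10, adjusted p = 0.34, with 8.76% of genes called). All nuclei are not a like baseline: all 4 oligodendrocyte and all 4 microglial markers were lower in transduced neurons with either vector. The part of these cells in the Syne1 values was not tested. Mutant transduced neurons were first in the order of Syne1 means and the only group to exceed the next, 654 CPM in mutant non-transduced VIP nuclei, by more than both SDs. The other 9 means lay between 458 and 654 CPM.

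Sun1 (ENSMUSG00000036817, GRCm38, chr5:139200637-139249840, plus strand) encodes an inner membrane SUN protein. In transduced neurons it ran from 98.9 to 188 CPM with Kir2.1 (median 130), against 145 to 223 CPM with the mutant (median 198), and the ranges overlapped. Its log2 fold change of -0.45 ± 0.15 did not pass (adjusted p = 0.0828), although it did in DESeq2 (adjusted p = 0.0356) and without library 5 of Kir2.1 transduced neurons (adjusted p = 0.0394). In transduced VIP nuclei the vectors gave 92.2 ± 29.4 CPM with Kir2.1 and 98.5 ± 27.3 CPM with the mutant (log2 fold change -0.08 ± 0.23, adjusted p = 0.968). Sun1 was lower in transduced VIP nuclei than in transduced neurons with either vector. The log2 fold change was -0.95 ± 0.19 with the mutant (1.93-fold lower, adjusted p = 1.75e-04, no overlap at 56.0 to 142 CPM against 145 to 223 CPM, with 17.9% of genes called) and -0.55 ± 0.18 with Kir2.1 (1.46-fold lower, adjusted p = 0.0302, at 43.8 to 131 CPM against 98.9 to 188 CPM, with 18.9% of genes called). With the replicate number as a block the Kir2.1 call was lost (-0.44, adjusted p = 0.116).

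Over the non-transduced groups together, Sun1 RNA was not detectably higher in the INTACT-tagged VIP nuclei. With 22 VIP libraries and 22 libraries of all nuclei, none transduced, the log2 fold change was -0.17 ± 0.16 (adjusted p = 0.452, 95% interval -0.48 to 0.14). In the mice without AAV the 3 VIP libraries held 76.9, 161 and 213 CPM of Sun1, against 58.0, 78.7 and 79.4 CPM in all nuclei. The means went different ways: 150 CPM in VIP against 72 CPM in all nuclei without AAV, 106 against 123 CPM with Kir2.1, and 86.9 against 124 CPM with the mutant. Whether these differences differ was not tested. Injection with either vector, relative to no AAV, gave -0.64 ± 0.29 in non-transduced VIP nuclei (adjusted p = 0.504) and 0.77 ± 0.25 in all nuclei (adjusted p = 0.295), neither of which passed. Restricted to males, the sex of every library without AAV, these values were -0.73 (adjusted p = 0.618) and 0.76 (adjusted p = 0.408), a restriction also added after the data were seen. Mutant transduced neurons held more Sun1 than all nuclei of mutant-injected mice (log2 fold change 0.57 ± 0.17, adjusted p = 0.0343), a call lost with DESeq2 size factors (adjusted p = 0.0537) and with no filter on low counts (adjusted p = 0.0584). The part of glial cells among all nuclei in this value was not tested.

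**Figure D4:**
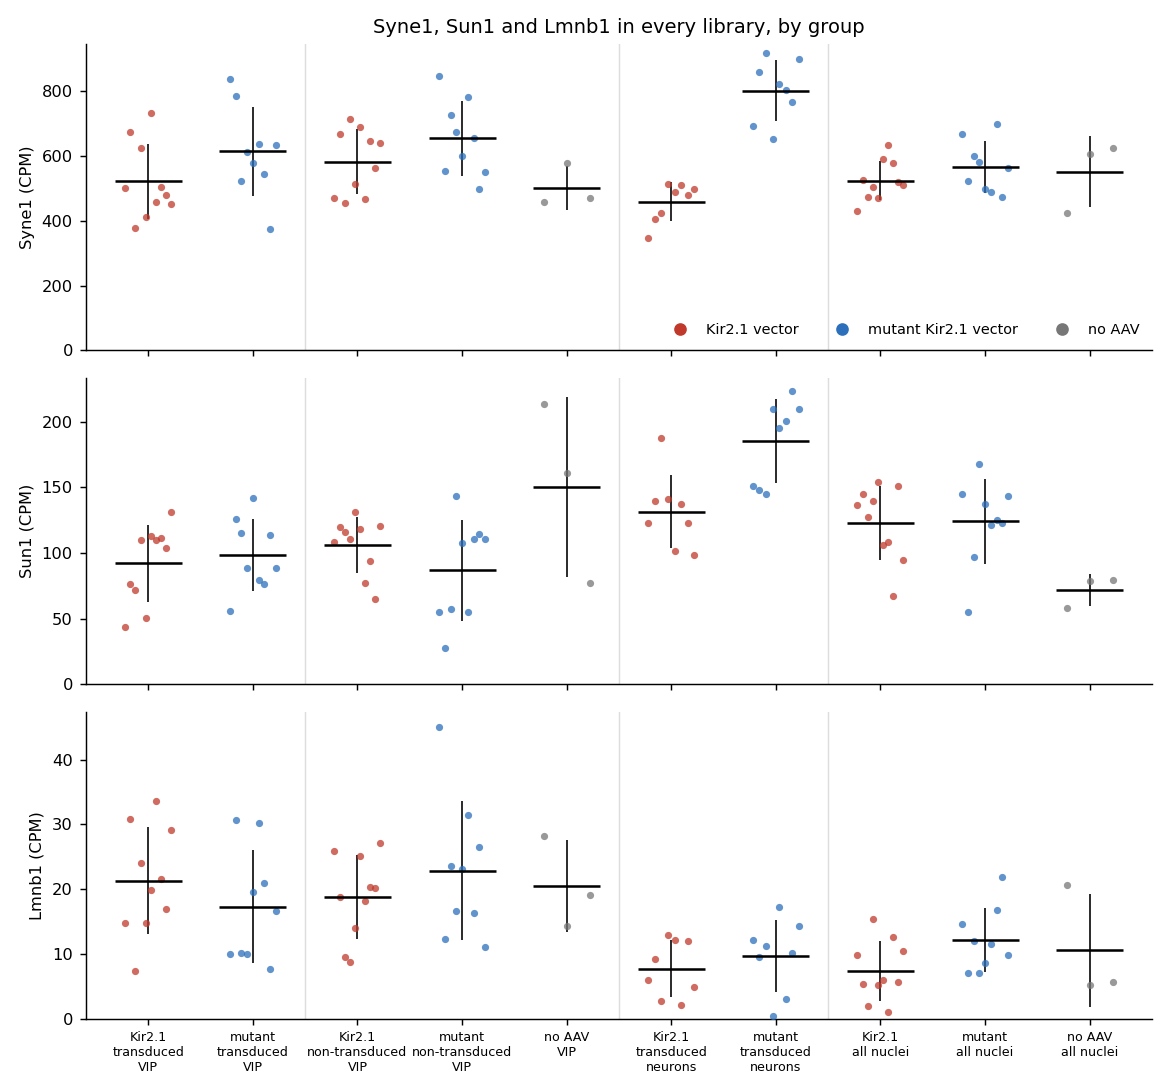
Syne1 (top), Sun1 (middle) and Lmnb1 (bottom) in CPM on linear axes in each library, with the mean and SD of each of the 10 groups. Syne1 in Kir2.1 transduced neurons (347 to 513) lies below mutant transduced neurons (651 to 918), Sun1 is highest in mutant transduced neurons (mean 185), and Lmnb1 is higher in the 5 VIP groups (means 17.3 to 22.9) than in the other 5 (means 7.36 to 12.1).

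Lmnb1 (ENSMUSG00000024590, GRCm38, chromosome 18, plus strand), which encodes lamin B1, differed between cell populations and was called between the vectors in no population. In non-transduced nuclei it averaged 18.8 ± 6.45 CPM in VIP nuclei and 7.36 ± 4.6 CPM in all nuclei of Kir2.1-injected mice (n = 10 each). In mutant-injected mice it averaged 22.9 ± 10.7 CPM in VIP nuclei and 12.1 ± 4.9 CPM in all nuclei (n = 9 each). Over both vectors and the mice without AAV the log2 fold change was 1.12 ± 0.24, or 2.17-fold higher in VIP nuclei (adjusted p = 1.26e-04, edgeR). In that comparison 32.6% of all genes were called. The ranges of the groups overlapped. Among transduced nuclei Lmnb1 was 2.69-fold higher in VIP nuclei than in neurons with Kir2.1 (21.3 ± 8.27 CPM against 7.72 ± 4.4 CPM, log2 fold change 1.43 ± 0.44, adjusted p = 0.0147, edgeR, with 18.9% of genes called). With the mutant it averaged 17.3 ± 8.76 CPM in VIP nuclei and 9.74 ± 5.55 CPM in neurons, which did not pass (0.80 ± 0.44, adjusted p = 0.242, with 17.9% of genes called). The lowest library of these neurons held 3 counts of Lmnb1. The change with vector was 0.31 ± 0.31 in transduced VIP nuclei (adjusted p = 0.831) and -0.27 ± 0.51 in transduced neurons (adjusted p = 0.842).

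Lmna (lamins A and C, chr3:88480147-88509956, minus strand), Lmnb2 (lamin B2, chr10:80901203-80918245, minus strand) and Sun2 (an inner membrane SUN protein, chr15:79724070-79742536, minus strand) passed in none of the 15 comparisons. Lmna averaged 15 to 24.6 CPM over the 10 groups, with log2 fold changes of -0.67 to 0.45 and a lowest adjusted p of 0.128. Lmnb2 averaged 9.95 to 22.6 CPM, with log2 fold changes of -0.56 to 0.52 and a lowest adjusted p of 0.106. Sun2 averaged 8.04 to 15.3 CPM, with log2 fold changes of -0.71 to 0.72 and a lowest adjusted p of 0.319. Lmna, the partner for which Mlip is named, was at 15 ± 6.92 CPM with Kir2.1 and 17.6 ± 5.29 CPM with the mutant in transduced VIP nuclei, a log2 fold change of -0.22 ± 0.34 with a 95% interval of -0.91 to 0.47. In transduced neurons it was at 22.9 ± 7.51 CPM with Kir2.1 and 23.6 ± 9.23 CPM with the mutant (0.02 ± 0.28, interval -0.58 to 0.61). Over the 79 libraries these 3 genes had 5403 to 9844 counts each, a range that also holds Lmnb1 (7179), and single libraries held as few as 0 counts of Sun2 and 2 of Lmnb2.

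**Figure D5:**
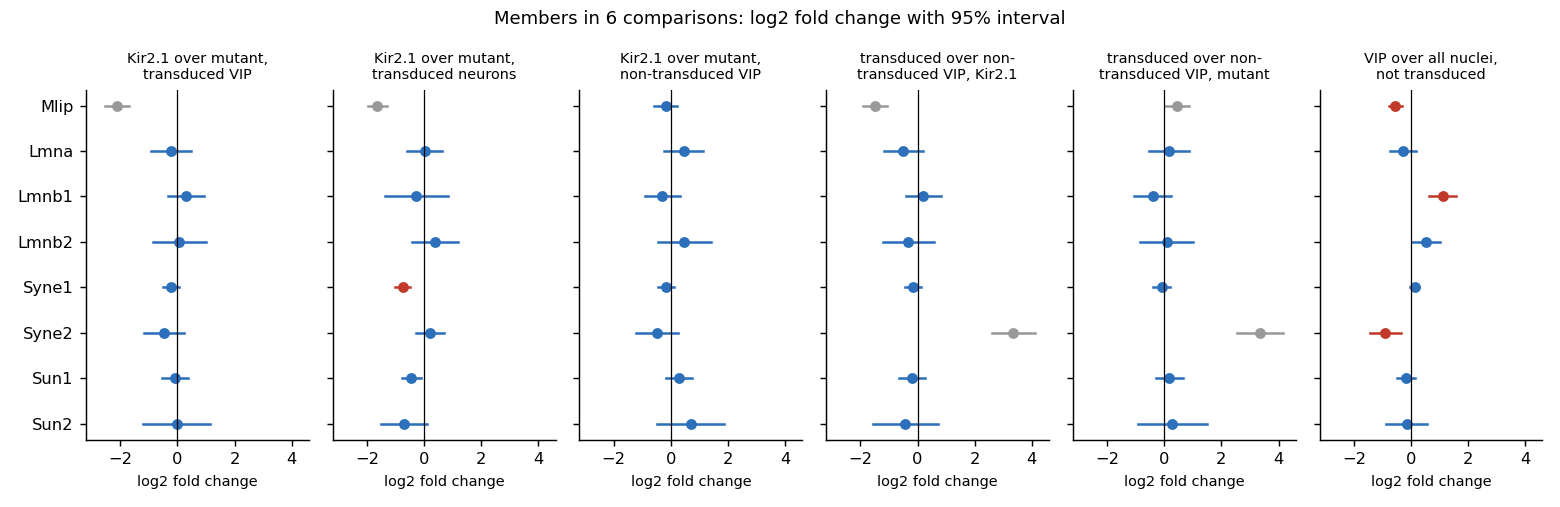
Log2 fold change (points) with its 95% interval (lines) of the 8 members in 6 comparisons, each with the group named first over the other. Grey marks values that chose the member and have no test, red an adjusted p under 0.05 and blue the rest; the red points are Syne1 in transduced neurons (-0.75) and Mlip (-0.55), Lmnb1 (1.12) and Syne2 (-0.90) in VIP over all nuclei.

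Counted by comparison, and leaving out the members chosen on it, 0 of 7 members were called between the vectors in transduced VIP nuclei (0 at an unadjusted p under 0.05, 0 by DESeq2), against 1.39% of all genes. In transduced neurons 1 of 7 was called (2 by DESeq2), against 5.63%. Between the vectors in non-transduced VIP nuclei and in all nuclei 0 of 8 were called (0 at an unadjusted p under 0.05 and 0 by DESeq2 in each), against 0% of genes. Between transduced and non-transduced VIP nuclei 0 of 6 were called with either vector (again 0 unadjusted and 0 by DESeq2), against 0.769% of genes with Kir2.1 and 0.00943% with the mutant. For injection against no AAV 0 of 8 were called in VIP nuclei and in all nuclei (1 each at an unadjusted p under 0.05, Sun1, and 0 by DESeq2), against 0.00943% and 0.211% of genes. For the interaction of vector with transduction 0 of 6 were called (0 unadjusted, 0 by DESeq2), against 0.401%, and for that of vector with population 0 of 7 (2 unadjusted, Syne1 and Syne2, and 0 by DESeq2), against 0.316%. Between populations 3 of 8 were called for VIP against all nuclei, against 32.6% of genes, and 3 of 7 (mutant) and 2 of 7 (Kir2.1) for transduced VIP nuclei against neurons, against 17.9% and 18.9%. Between transduced neurons and all nuclei 2 of 6 were called with the mutant (Syne1 and Sun1; 2 unadjusted and 2 by DESeq2), against 5.41% of genes, and 0 of 6 with Kir2.1 (0 unadjusted and 0 by DESeq2), against 8.76%. For transduced VIP nuclei against neurons with the mutant the called members were Sun1, Syne2 and Syne1. Syne2 was higher in VIP nuclei (log2 fold change 0.68 ± 0.22, adjusted p = 0.02) and Syne1 lower (-0.41 ± 0.14, adjusted p = 0.0344), a call that DESeq2 size factors ended (adjusted p = 0.0719). With Kir2.1 neither passed (Syne2 0.04 ± 0.21, adjusted p = 0.938; Syne1 0.15 ± 0.14, adjusted p = 0.55).

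Per kilobase of annotated exon, the RNA of the 8 genes differed in abundance in nuclei without AAV. In all nuclei without AAV the mean levels in CPM per kilobase were 21.0 for Mlip, 13.6 for Syne1, 9.48 for Sun1, 3.58 for Lmna, 3.54 for Lmnb1, 2.68 for Lmnb2, 2.01 for Sun2 and 0.505 for Syne2. Syne2 was thus the lowest member by this measure in nuclei without AAV. In mutant transduced VIP nuclei it stood at 5.01, above Lmnb2 (3.2), Lmna (3.01) and Sun2 (1.82) and below Lmnb1 (5.84), Sun1 (13), Syne1 (15.2) and Mlip (18.4). In Kir2.1 transduced VIP nuclei Mlip stood at 4.21, below Syne1 (12.9), Sun1 (12.1) and Lmnb1 (7.19). Whether introns were counted was not given, so these levels assume reads from exons alone.

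The remaining machinery of the envelope was followed in 6 lists of 60 genes: other LINC members, inner membrane proteins, enzymes that process lamins, torsins and their cofactors, chromatin tethers and lamina partners, and nuclear pore proteins. Between the vectors in transduced VIP nuclei 0 of 57 tested genes passed in edgeR (5 at an unadjusted p under 0.05), against 1.39% of all genes, with a median log2 fold change of 0.02 beside 0.04 over all genes. In transduced neurons 1 of 57 passed (1.75%, 7 at an unadjusted p under 0.05), against 5.63% of all genes, with a median of 0.12 beside 0.05 over all genes. This was Tmem38a, an intracellular cation channel, which averaged 272 ± 89.3 CPM with Kir2.1 and 161 ± 33.2 CPM with the mutant (log2 fold change 0.81 ± 0.19, adjusted p = 0.00799). Between transduced and non-transduced VIP nuclei 0 of 57 passed with either vector (3 with Kir2.1 and 0 with the mutant at an unadjusted p under 0.05), against 0.769% (Kir2.1) and 0.00943% (mutant) of all genes, with medians of 0.02 (Kir2.1) and 0.06 (mutant) beside 0.01 and -0.01 over all genes.

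Between VIP and all nuclei 8 of 58 list genes passed (13.8%), 3 higher and 5 lower in VIP nuclei, against 32.6% of all genes, with a median of 0.005 beside -0.05. Nup93, a scaffold protein of the nuclear pore, was lower, at 25.0 ± 12.3 CPM in VIP and 72.4 ± 14.6 CPM in all nuclei (log2 fold change -1.53 ± 0.17, adjusted p = 1.15e-10). Spag4, a SUN family member best known from testis, was higher, at 10.1 ± 7.0 CPM in VIP and 1.63 ± 2.33 CPM in all nuclei (2.62 ± 0.57, adjusted p = 1.79e-04). Syne3, which encodes nesprin-3, had 9 counts over the 22 VIP libraries, of which 17 were at 0, and 418 counts over the 22 libraries of all nuclei, of which 4 were at 0 (adjusted p = 2.39e-06). Tmem201, an inner nuclear membrane protein (0.47 ± 0.17, adjusted p = 0.0326) and Banf1, a chromatin-binding partner of the lamina (0.62 ± 0.25, adjusted p = 0.0497), were higher in VIP nuclei. Fntb, a subunit of the farnesyltransferase that modifies lamins (-0.37 ± 0.10, adjusted p = 0.00236), the pore protein gene Nup35 (-0.51 ± 0.19, adjusted p = 0.0331) and the torsin gene Tor1b (-0.49 ± 0.19, adjusted p = 0.0392) were lower. All nuclei held more glial RNA than VIP nuclei: the summed oligodendrocyte markers were 83.2 to 502 CPM in VIP and 463 to 3580 CPM in all nuclei, and the microglial sum was 68.8 to 151 CPM in VIP and 103 to 513 CPM in all nuclei. The part of these cells in the differences between the populations was not tested.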

How the data were processed

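The authors deposited raw, unnormalized counts of 79 libraries in 1 table. Tools in the submitters' processing notes are HOMER 4.9.1, STAR 2.5.3a and cutadapt 1.18, with the mm10 genome and no roles; the sources used here do not give annotation, counting settings or strand use. Per the labels' protocols, cDNA was primed with oligo-dT, amplified for 17 PCR cycles and made into libraries with Nextera XT, which does not mark strand, so reads of antisense neighbours within Syne1, Sun1 and Sun2 could not be separated. The protocol names harvest in darkness or after 1 h of light; the library labels, all dark, were followed. Counts carry no molecular identifiers.

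Gene identifiers were matched to GENCODE vM21 (GRCm38): 55154 matched and 181, with 0.0264% of counts, did not. Every column matched a library, and 0 pairs were identical. The titles number the libraries of each group as biological replicates (BioRep), but no label names the animal of a library. The p-values reflect variation among libraries so numbered, part of which may be technical. Members and lists were chosen with earlier results of these data known, and the named list genes are those past the threshold.

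The test was edgeR 4.0.16's quasi-likelihood F test (TMM, filterByExpr with a minimum count of 10 and total of 15) in R 4.3.3, with Benjamini-Hochberg adjustment over all genes and a threshold of 0.05, two-sided, in 15 comparisons. SEs are the log2 fold change over the root of F. Group means were fitted over 41 VIP, 22 all-nuclei, 16 neuron, 44 non-transduced (vector as a covariate), 35 transduced and 35 neuron-and-all-nuclei libraries. All 8 members passed the filter throughout. CPM levels use TMM over all 79 libraries. Correlations were computed with scipy 1.17.1 (exact permutations under 10 libraries, otherwise 100000). The procedure was tested on simulated data. Alternatives were DESeq2 1.42.0, its size factors, no filter, sex, replicate block, outlying libraries and each library left out.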

Additional observations from a re-analysis of the deposited data

Results flagged for a closer look

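A library was looked at again where its gap to the nearest other library of its group, divided by the range, exceeded Dixon's 95% value. This was so in 4 of 64 member-and-group sets tested, and chance gives about 1 in 20. Syne2 in mutant transduced VIP library 8 was at 260 CPM, against 155 CPM in the next; without it the fold with transduction was 8.97. Lmnb2 was at 24.7 CPM in mutant all-nuclei library 5, against 12.5 CPM in the next, and at 27.9 CPM in mutant non-transduced VIP library 8, against 14 CPM. Sun2 was at 29.5 CPM in Kir2.1 transduced VIP library 9, against 15.3 CPM in the next. No interaction of vector with transduction or population was called for a member chosen by function.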

How the results depend on the processing

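Of 1420 values recomputed under alternatives, 1359 were the same. Of the 1420, 856 were fold changes of single members, and 826 of those were the same. For tested fold changes and relations, the same meant keeping direction and side of the threshold. For counts of genes or members called it meant a count equal or near to the main one. For Mlip and Syne2 on contrasts that chose them it meant the same direction and a shift below the SD among libraries of a group. The interaction of vector and transduction for Syne2 (0.01) turned to -0.00217 with DESeq2 size factors, to -0.105 without the libraries that stand apart, and ran from -0.189 to 0.254 with each library left out. With each library left out, genes called ran from 0 to 4 for injection in VIP nuclei, 48 to 112 for that interaction and 23 to 60 for injection in all nuclei, and members called in transduced neurons from 1 to 2. No filter gave 214 genes for injection in VIP nuclei (main 2), 289 in all nuclei (45), 719 for the transduction interaction (85), 274 for the population interaction (58), and 5673 for VIP against neurons with Kir2.1 (3474). DESeq2 gave 77 and 441 for injection in VIP and all nuclei, 15 and 5 between vectors in non-transduced VIP and all nuclei (0 each), 251 and 6 for transduction with Kir2.1 (163) and the mutant (2), 118 for the population interaction, and in transduced neurons 1445 genes (898) and 2 members. Sex as a covariate gave 6 for injection in VIP nuclei. For mutant neurons against all nuclei, DESeq2 size factors and no filter each left 1 member called instead of 2 (Sun1 lost). The cause was not tested.

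Libraries share replicate numbers across groups, but same-numbered libraries of 1 vector did not all deviate together (median correlations 0.026 to 0.083), so the numbers were not taken as pairs. Even so, a library's best match in the other group had its own number in 62 of 108 pairs within 1 vector, against 29 of 169 across vectors or against no AAV, a hint from the data and not from the design. With the replicate block, 526 genes were called in transduced neurons, 34 for injection in VIP nuclei and 5 for transduction with the mutant. Between VIP nuclei and neurons with Kir2.1 the block left 1 member called instead of 2. The call on Sun1 was lost (-0.44, adjusted p = 0.116, edgeR).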
